A study of Mus musculus with 8 samples.

Results

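TEC is the GENCODE class for stretches of the genome that look transcribed but lack the experimental proof needed to call them genes. This account follows the 1650 TEC loci that had 20 or more counts summed over 8 libraries, of 3214 TEC loci and 55471 gene identifiers in the count table. All 1650 are single-exon loci. They were sorted by where they lie relative to protein-coding genes in GENCODE M21 on GRCm38. Of the 1650, 1203 lay inside an intron of a coding gene and on its strand, 20 lay in an intron of a coding gene on the opposite strand, and 272 lay outside coding genes. The other 155 overlapped a coding exon by at least 1 base on either strand and are uncertain, since their reads may belong to that exon. Because the summed count chose the loci, the sum itself is given only as a description.

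RNA came from mouse motor neurons differentiated from HBG3 embryonic stem cells, which carry a GFP reporter under the motor neuron promoter HB9, and was taken 3 days after the cells were plated. The libraries were of 4 kinds. Input was RNA before capture, ODD and EVEN were pull-downs with separate sets of 20 nt biotinylated antisense probes against the long noncoding RNA Lhx1os, and LacZ was a pull-down with probes against a bacterial mRNA that mouse cells lack. Each of the 4 groups had 2 libraries, 1 from each of 2 independent experiments, called replicate 1 and replicate 2. All groups share the same cells and differentiation, with no other treatment.

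An intron is transcribed with the rest of its gene and is normally removed while the RNA is still in the nucleus, so reads inside an intron, on the strand of the gene, can come from unspliced precursor RNA, from an excised intron or from an RNA of its own. Many of the longest mammalian genes encode neuronal adhesion molecules, receptors and synaptic scaffolds, and nearly all of their length is intron. A coding gene that contains a TEC locus on its own strand is called its host below.

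The Input libraries held 20515501 and 24628435 counts and each of the 6 pull-downs between 7632775 and 12563449. Every TEC locus had the same length in the deposited table as in the annotation. Pan-neuronal and motor neuron markers were present in both experiments, with summed Input levels of 439 and 654 CPM per kb (counts scaled to library size and to kilobases of exon) for 6 pan-neuronal genes and 103 and 294 CPM per kb for 10 motor neuron genes in replicates 1 and 2. Neural progenitor genes stood at 771 and 604 CPM per kb, the 6 astrocyte and oligodendrocyte genes, 1 of them at 0, at 140 and 40.9, the 5 fibroblast genes at 32.2 and 10.8, the 8 spinal interneuron genes at 11 and 12.3, and the 4 pluripotency genes, 1 of them at 0, at 0.996 and 2.17. The experiments therefore differed in cell makeup or in RNA per cell, which cannot be told apart in bulk RNA, and for this reason each pull-down is also set against the Input of its own experiment.

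The last 60 bases of loci that carried many counts are shown first, because they show whether the annotated end of a locus holds the AATAAA or ATTAAA hexamer that directs cleavage and polyadenylation of most mRNAs. A hexamer lying in the last 50 bases is in capitals. All are written 5′ to 3′ on the strand of the locus, on GRCm38. The first 3 lie in same-strand introns of Auts2 (chr5:132015610-132015669, minus strand), Adgrb3 (chr1:25686062-25686121, minus) and Ctnna2 (chr6:77428678-77428737, minus). Gm43668 lies in an opposite-strand intron of Dnajc19 (chr3:34075941-34076000, plus), and begins shortly past the annotated end of Fxr1 on its own strand. Gm44645 lies outside coding genes and downstream of Rgma (chr7:73423843-73423902, plus). Gm37899 lies outside coding genes between the noncoding genes Rian and Mirg (chr12:109677526-109677585, plus).
Gm42993: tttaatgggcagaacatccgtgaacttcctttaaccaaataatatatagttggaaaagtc
Gm37628: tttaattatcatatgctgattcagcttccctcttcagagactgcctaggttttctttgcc
Gm44433: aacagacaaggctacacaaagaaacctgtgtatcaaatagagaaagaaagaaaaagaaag
Gm43668: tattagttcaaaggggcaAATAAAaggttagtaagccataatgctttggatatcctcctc
Gm44645: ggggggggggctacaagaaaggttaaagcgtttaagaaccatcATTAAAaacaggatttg
Gm37899: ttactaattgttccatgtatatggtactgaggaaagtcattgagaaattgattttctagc

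Among the same-strand intronic loci, 12.97% (156 of 1203) had AATAAA in the last 50 bases, as against 59.38% of the longest protein-coding transcripts of 21835 coding genes. The share was 45% (9 of 20) in opposite-strand introns, 36.76% (100 of 272) outside coding genes and 33.55% (52 of 155) in the exon-overlap class. In the first 50 bases of the same loci it was 4.66%, 5%, 2.94% and 4.52%, which gives the level for this letter string away from an end. ATTAAA was found in the last 50 bases of 5.99% of same-strand intronic loci, 20% of opposite-strand loci, 15.81% of loci outside coding genes, 16.77% of the exon-overlap class and 16.49% of the coding transcripts. Most of the same-strand intronic loci, including the 3 shown, thus ended without either string. Both strings were searched on the strand of the locus and an overlap of the 2 was allowed. On the other strand the last 50 bases held AATAAA in 4.82% of the same-strand intronic loci.

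Simple repeats are the second feature shown, because the title of the series names such repeats in connection with RNA-RNA pairing. The tracts below, marked as low in complexity by dustmasker, are given with 15 bases on each side, and the tract is in capitals. 6330415B21Rik lies in Ctnna2 (chr6:77381003-77381121, minus) and Gm42992 in Auts2 (chr5:131991513-131991587, minus).
6330415B21Rik: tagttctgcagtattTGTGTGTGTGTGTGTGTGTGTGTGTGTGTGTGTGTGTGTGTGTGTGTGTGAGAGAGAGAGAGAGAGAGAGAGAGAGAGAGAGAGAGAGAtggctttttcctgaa
Gm42992: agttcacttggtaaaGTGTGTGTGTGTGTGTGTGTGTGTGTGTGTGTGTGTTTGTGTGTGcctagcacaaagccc

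6330415B21Rik has a TG repeat followed by an AG repeat over 89 bases, and Gm42992 a TG repeat of 45 bases. These 2 are examples picked by hand from the named same-strand loci and do not stand for the others. The longest tracts there were of other makeup, 212 bases rich in CT in Gm38056 and 150 bases rich in AC in Gm47087. Low-complexity sequence made up a median of 4.36% of the bases of a same-strand intronic locus and 3.81% of a locus outside coding genes. Across 1051 same-strand intronic loci the share of low-complexity bases and the gain over Input had a Spearman correlation of -0.005. GC content and gain had a correlation of -0.14. Loci share their libraries, so these values describe the loci and have no p.

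The loci as a whole were higher in every pull-down than in Input. Together the 1650 loci took 0.13% and 0.167% of all counts before capture, 0.678% and 0.854% with LacZ probes, 0.631% and 0.798% with ODD and 0.652% and 0.523% with EVEN. The lowest pull-down share was in EVEN replicate 2, and it was still above both Input libraries. Of the 1650 loci, 1355 passed edgeR's default filter on low counts and were tested, and 295 were not. By the quasi-likelihood test of edgeR, with Benjamini-Hochberg adjustment over 16524 genes, 834 tested loci were higher in LacZ than in Input, where 6.98% of all genes tested were called higher. In ODD 796 were higher, beside 6.46% of all genes, and in EVEN 661 were higher, beside 5.37% of all genes. The median log2 fold change of the tested loci was 2.80 with LacZ probes, 2.72 with ODD and 2.43 with EVEN, and that of all genes tested was -0.05, -0.03 and -0.00. A locus could pass the filter through the pull-downs alone, so these counts and medians describe the tested loci only. The 3 contrasts share the Input libraries, and 651 loci were called in all of them.

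No tested locus was called lower than Input in LacZ, ODD or EVEN, where 0.43%, 0.375% and 0.284% of all genes were called lower. At an unadjusted p under 0.05, edgeR had 0, 0 and 3 loci lower in these contrasts, and DESeq2 called 0 lower in each. With the replicate as a block edgeR called 1099 loci higher in LacZ, 1081 in ODD and 1017 in EVEN, and 1, 0 and 2 lower. The counts of calls were lower with any 1 library left out. Such a fit leaves 1 library in that group, so it cannot show whether a single library carried the calls. Without Input replicate 1, the loci called higher numbered 183 for LacZ, 117 for ODD and 0 for EVEN. At an unadjusted p under 0.05 without that library, 934 loci were still higher in EVEN, with a median log2 fold change of 2.11. Without Input replicate 2 the count was 483 in ODD and 329 in EVEN, without LacZ replicate 2 it was 389 in LacZ, without ODD replicate 2 it was 449 in ODD, and without EVEN replicate 1 it was 194 in EVEN. In what follows, gain means the log2 fold change of the mean of the 3 pull-downs over Input, by which 931 tested loci were called higher, beside 8.37% of all genes, and 0 lower, beside 1.79%. At an unadjusted p under 0.05, 3 loci had a lower mean, and DESeq2 called 0. Without Input replicate 1 the gain was called in 228 loci.

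Loci differed by position in how often they were seen and how much they gained. Of the TEC loci annotated in each class, 82.06% in same-strand introns reached 20 counts, as against 8.62% in opposite-strand introns and 22.63% outside coding genes. No count at all was found for 83 of 1466 same-strand loci, 148 of 232 opposite-strand loci and 595 of 1202 loci outside coding genes. The sources used here do not say whether counting used the strand. Loci in introns of both orientations were far from equal in these counts.

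The same-strand intronic loci carried most of the signal. Summed over the 1203 loci, their level was 651 and 926 CPM before capture, 4942 and 6395 with LacZ probes, 4758 and 6009 with ODD and 4880 and 4028 with EVEN. All 6 pull-downs lay above both Input libraries. The means were 789 ± 194 before capture, 5669 ± 1028 with LacZ probes, 5383 ± 884 with ODD and 4454 ± 603 with EVEN (CPM, SD, n = 2 each). Against the Input of its own experiment the ratio ran from 4.35 in EVEN replicate 2 to 7.59 in LacZ replicate 1. The median gain of the 1051 tested loci was 2.94, with quartiles at 2.03 and 3.93, and 741 of them were higher in LacZ.

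**Figure D1:**
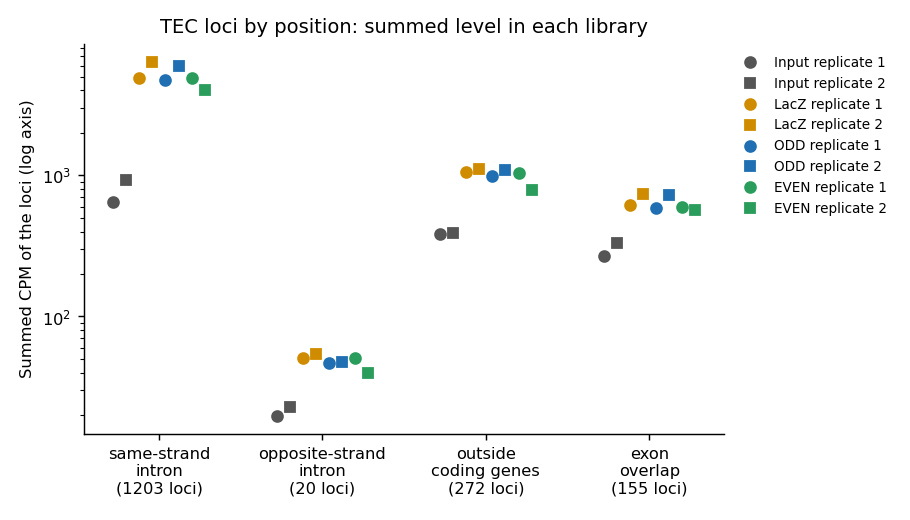
Summed level of the TEC loci of each position class (CPM, log axis), with 1 point per library, circles for replicate 1 and squares for replicate 2. In same-strand introns the 6 pull-down libraries stood at 4028 to 6395 CPM, and the Input libraries at 651 and 926.

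The other positions gained less. The 20 opposite-strand intronic loci summed to 19.6 and 22.8 CPM in Input and to between 39.9 and 54.7 in the pull-downs. Of these sums, Gm43668, which begins shortly past the end of Fxr1 on its own strand, made up 9.76 and 11.2 CPM in Input and 18.7 to 28.9 in the pull-downs. The median gain of the 10 tested loci was 0.91. That median rests on few loci, and leaving out 1 library at a time, which also changes which loci pass the filter, moved it to between 1.11 and 2.62. The 272 loci outside coding genes summed to 381 and 388 CPM in Input and to between 791 and 1106 in the pull-downs, with a median gain of 1.25 in the 183 tested. The 155 exon-overlapping loci summed to 268 and 334 CPM in Input and to between 568 and 734 in the pull-downs, with a median gain of 1.35 in the 111 tested. In each of these classes too, no pull-down library was as low as an Input library. Higher in LacZ were 5 opposite-strand loci, 57 outside coding genes and 31 overlapping exons. When loci were chosen by 10 or more Input counts instead, the median gain was 2.55 in same-strand introns, 0.49 in opposite-strand introns, 0.92 outside coding genes and 1.2 with exon overlap.

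ODD and EVEN were next set against LacZ, which asks whether any TEC locus came down with the Lhx1os probes more than with the control probes. None was called in ODD, in EVEN or in their mean, in either direction, and neither was any gene among all those tested (0.0% each). DESeq2, the replicate block and a test without the count filter called none as well. At an unadjusted p under 0.05, edgeR had 5 loci in ODD, 30 in EVEN and 14 in the mean, among 170, 283 and 218 genes, and of the 14 loci 13 were lower than LacZ and 1 was higher. The median log2 fold change of the tested loci was -0.09 in ODD, -0.33 in EVEN and -0.21 in the mean, where all genes had 0.01, 0.02 and 0.01. EVEN replicate 2, the pull-down library with the lowest share of TEC counts, enters the last 2 of these.

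The locus that was higher was Gm43311, on chr5:65410651-65413027, minus strand, which overlaps an exon of Lias, the lipoic acid synthetase gene, on the opposite strand. It had 2 and 2 counts before capture, 5 and 3 with LacZ probes, 12 and 10 with ODD and 23 and 9 with EVEN. All 4 Lhx1os pull-downs were above both LacZ libraries, on few counts. Averaged over ODD and EVEN, its log2 fold change over LacZ was 1.41 (SE 0.59), with an unadjusted p of 0.0494 and an adjusted p of 1 by edgeR with Benjamini-Hochberg adjustment. The next were Gm37212 in Rabgap1l, at 0.57 (SE 0.33), and Gm49525 in Zfpm2, the gene of a GATA cofactor, at 0.62 (SE 0.36).

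At the other end stood 4930589O11Rik, which overlaps an exon of Smim14 on the opposite strand, Gm38021 in Dis3l2, the gene of an RNA exonuclease, and Gm43167 in Scfd2. 4930589O11Rik had 23 and 22 counts before capture, 13 and 17 with LacZ probes, 9 and 7 with ODD and 8 and 7 with EVEN. Its log2 fold change over LacZ was -1.21 (SE 0.32, unadjusted p 0.00728), that of Gm38021 was -1.26 (SE 0.36) and that of Gm43167 was -1.84 (SE 0.57). The adjusted p was 1 for each by edgeR with Benjamini-Hochberg adjustment.

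The 1203 same-strand loci lay in 679 hosts, but the signal was uneven among them. 459 hosts held 1 locus, 36 held 5 or more and 8 held 10 or more. The 60 hosts with the most counts held 50% of the pull-down counts of the class. The 8 hosts with the most pull-down counts held 98 loci, all of them tested, and took 22.05% of the pull-down counts of the class and 7.44% of its Input counts. In order of counts they were Auts2, Adgrb3, Ctnna2, Fam155a, Maml3, Ank2, Maml2 and Pcdh7. Their annotated spans ran from 411 kb for Maml2 to 1106 kb for Auts2, while the median host spanned 116 kb.

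Auts2 encodes a nuclear and cytoskeletal regulator that is active in developing neurons. Its 22 intronic loci summed to 299 and 351 counts before capture, 2104 and 4374 with LacZ probes, 3639 and 3879 with ODD and 3341 and 2503 with EVEN. Every pull-down exceeded Input several times over, although Input was sequenced more deeply. Scaled to library size and set against the Input of the same experiment, the ratio ran from 13.2 to 23.8. All 22 loci were called higher in LacZ, in ODD and in EVEN, with gains between 3.35 and 4.97.

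Adgrb3, an adhesion G protein-coupled receptor of synapses, held 19 loci with 204 and 178 counts before capture, 1546 and 2459 with LacZ probes, 2237 and 2048 with ODD and 2169 and 1313 with EVEN. Ctnna2, the neuronal alpha-catenin that links cadherins to actin, held 9 loci with 151 and 177 counts before capture, 1234 and 2247 with LacZ probes, 1874 and 1965 with ODD and 1741 and 1386 with EVEN. Fam155a, an auxiliary subunit of the NALCN sodium leak channel, held 10 loci with 153 and 150 counts before capture, 978 and 2479 with LacZ probes, 1560 and 2160 with ODD and 1496 and 1454 with EVEN. In these 3 hosts, too, the pull-downs and Input did not overlap, and every locus was called higher in all 3 contrasts. Their ratios to the Input of the same experiment ran from 13.6 to 24.7, from 14.4 to 25.6 and from 17.9 to 29.5.

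The Mastermind-like coactivators of Notch appeared as a pair. Maml3 held 11 loci whose ratios ran from 16.3 to 30.2, and Maml2 held 2 loci whose ratios ran from 14.1 to 25.9. The 12 loci of Ank2, which encodes an ankyrin scaffold of the membrane skeleton, had ratios from 8.35 to 13.2, and the 13 loci of Pcdh7, a protocadherin, from 6.94 to 16. Of these, 12 of 12 in Ank2 and 12 of 13 in Pcdh7 were called higher in LacZ.

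**Figure D2:**
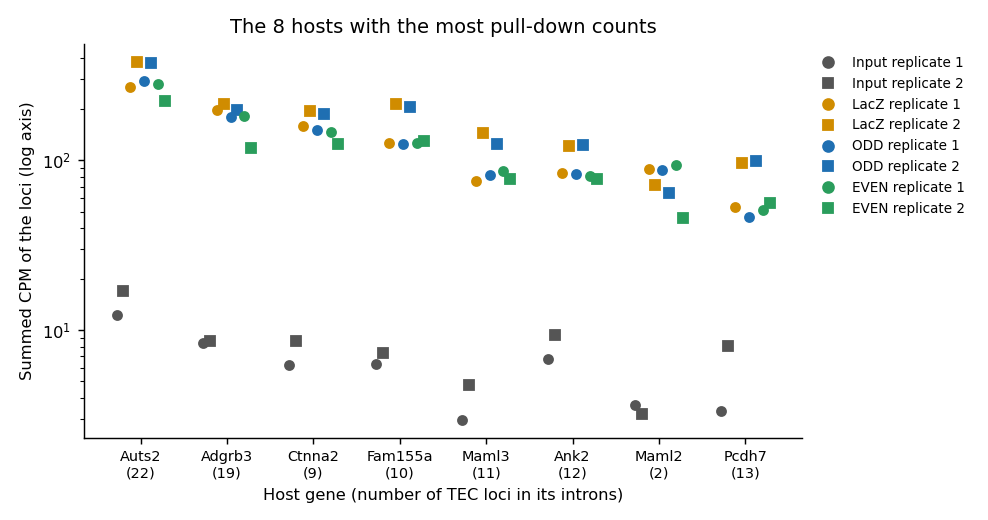
Summed level (CPM, log axis) of the intronic TEC loci in the 8 hosts with the most pull-down counts, with 1 point per library and the number of loci in brackets. In every host the 6 pull-down libraries lie above both Input libraries, by ratios of 6.94 to 30.2 within an experiment.

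Single loci in these hosts led the class. Gm47087, on chr9:13308214-13312446, plus strand, in Maml2, had 63 and 50 counts before capture, 529 and 635 with LacZ probes, 811 and 508 with ODD and 859 and 364 with EVEN. All pull-down libraries were above Input, and EVEN replicate 2 was the lowest of them. Its log2 fold change in LacZ over Input was 4.61 (SE 0.43, adjusted p 0.00272 by edgeR with Benjamini-Hochberg adjustment), while the mean of ODD and EVEN over LacZ was -0.17 (SE 0.31).

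Gm42993 (chr5:132015610-132022934, minus) and Gm42992 (chr5:131986549-131993384, minus), both from Auts2 and shown above, had 40 and 62 and 55 and 58 counts in Input. In LacZ they had 385 and 764 and 333 and 738 counts. In ODD they had 694 and 703 and 518 and 634, and in EVEN 625 and 408 and 542 and 394. Both sets of pull-downs stood clear of Input. The log2 fold changes in LacZ were 4.64 (SE 0.37) and 4.40 (SE 0.33). C130089K02Rik, in Maml3, followed with 30 and 53 counts before capture, 260 and 695 with LacZ probes, 425 and 569 with ODD and 436 and 362 with EVEN.

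The hosts that led by counts were not those that led by counts per kilobase of locus. When the hosts were ranked per kilobase, only Maml2 was among the first 8 of both lists, and the second list also held Map1b and Nedd4. Maml2 had 869 and Map1b 799 pull-down counts per kb of locus. Map1b, the gene of a microtubule-associated protein of growing axons, had the highest host level of all, at 280 CPM per kb in Input. Its 1 locus, 5330431K02Rik, had 19 and 62 counts before capture, 179 and 332 with LacZ probes, 270 and 331 with ODD and 244 and 213 with EVEN.

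Loci in shorter hosts of this second list gained less. Gm36936 lies in Nedd4, an E3 ubiquitin ligase gene of 87.5 kb, and had 358 and 276 counts before capture, 299 and 464 with LacZ probes, 484 and 375 with ODD and 491 and 328 with EVEN. In CPM this was 14.8 and 13.4 in Input and between 29.5 and 41.5 in the pull-downs, without overlap. Its log2 fold change in LacZ was 1.49 (SE 0.21, adjusted p 0.00762 by edgeR with Benjamini-Hochberg adjustment). A930004J17Rik lies in Srsf4, a splicing factor gene of 28.1 kb, and stood at 9.68 and 11.2 CPM in Input and 24.2 to 36.1 CPM in the pull-downs, a log2 fold change of 1.55 (SE 0.26) in LacZ.

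Gain increased with host length. The 1203 loci were divided into quartiles by the annotated span of the host, of 8.3 to 91.3 kb, 91.9 to 220 kb, 222 to 450 kb and 450 to 4435 kb. The median gain of the tested loci was 1.75, 2.63, 3.42 and 4.12 in the 4 quartiles, or 3.37-, 6.21-, 10.7- and 17.4-fold. Summed over the loci of a quartile, the ratio of a pull-down to the Input of its own experiment lay between 2.26 and 3.58, 3.58 and 7.30, 6.74 and 12.6, and 11.1 and 19.3. In each of the 6 pull-down libraries on its own the ratio was higher in each quartile than in the one before. Across 1051 loci the Spearman correlation of gain and host length was 0.735 (Pearson 0.703 with the log of length). It was 0.75 over the 746 loci with 10 or more Input counts, 0.75 over 602 hosts with 1 locus each, an alternative chosen after seeing the data, and between 0.67 and 0.72 in the single libraries against their own Input. Loci share libraries and hosts, and the correlations have no p.

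**Figure D3:**
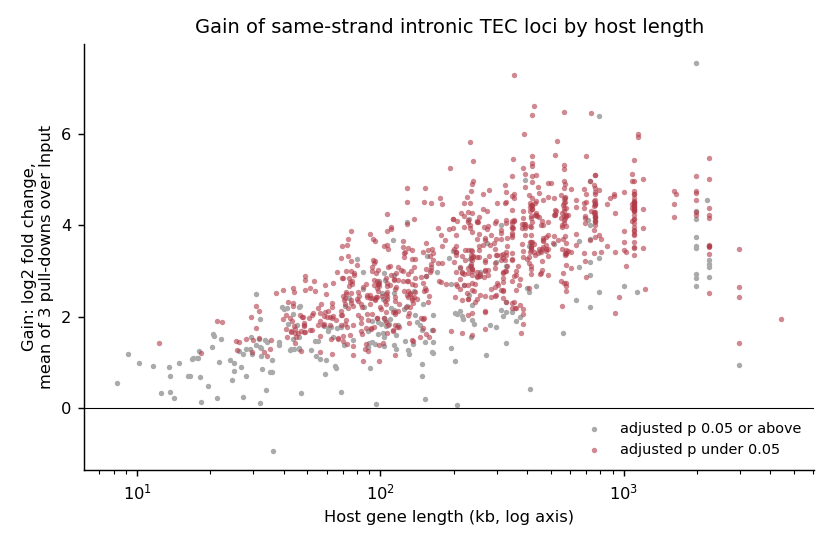
Gain of each of the 1051 tested same-strand intronic TEC loci (log2 fold change of the mean of the 3 pull-downs over Input) against the length of its host (kb, log axis), coloured by the adjusted p of edgeR's quasi-likelihood test. The median gain was 1.75 in the shortest quartile of hosts and 4.12 in the longest.

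The quartiles differed more in Input than in the pull-downs. The median Input level of a locus fell with host length, from 0.394 CPM per kb in the shortest quartile through 0.171 and 0.127 to 0.0791 in the longest. The median pull-down level was 1.38, 1.14, 1.31 and 1.2 CPM per kb. Over the tested loci, the Spearman correlation with host length was -0.53 for the Input level and 0.02 for the pull-down level. The loci were chosen by summed counts, most of which came from the pull-downs, so the choice bears more on the pull-down level than on Input. Both trends therefore describe the chosen loci only, and the part of the choice in them was not tested. In summed CPM the Input libraries went from 336 and 451 in the shortest quartile to 77.4 and 113 in the longest, and LacZ went from 1202 and 1445 to 1497 and 2079. A locus with few Input counts has a gain known with less precision, and 126 of the 299 loci in the longest quartile had 10 or more Input counts, as against 256 of 301 in the shortest. Their median gains were 4.11 and 1.70.

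**Figure D4:**
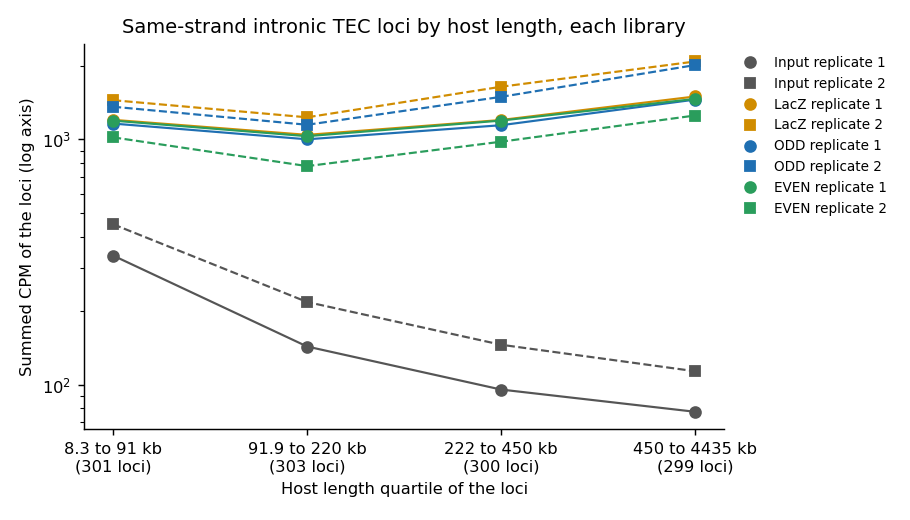
Summed level (CPM, log axis) of the same-strand intronic TEC loci in 4 quartiles of host length, with 1 line per library. The 2 Input lines go down from 336 and 451 CPM to 77.4 and 113, and the 6 pull-down lines end higher than they start.

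In finer steps the median levelled off above 500 kb. The median gain was 0.98 for the 34 tested loci in hosts of up to 25 kb, 1.55 between 25 and 50 kb, 2.12 between 50 and 100 kb, 2.56 between 100 and 200 kb and 3.42 between 200 and 500 kb. It was then 4.18 for the 135 loci in hosts of 500 to 1000 kb, 4.32 for the 72 loci in hosts of 1000 to 2000 kb and 3.43 for the 22 loci above 2000 kb. The last step held only 4 hosts. One of them was Fgfr2, the gene of a fibroblast growth factor receptor, annotated with a span of 2961 kb in this release. Its 5 loci had gains from 0.95 to 3.48, and the lowest, Gm44625, lay 1721 kb from the annotated start. Another was Gm20388, with 1 locus at 1.94 and no host counts in Input.

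Host expression, taken as the Input level of the exons of the host in CPM per kb, showed little relation to gain within quartiles of host length. In quartiles of host expression the median gain was 3.46, 2.74, 3.05 and 2.60 from the lowest to the highest. The Spearman correlation over 1051 loci was -0.19, and hosts with higher expression were shorter (correlation -0.32). Within each quartile of host length the medians of the 4 expression quartiles stayed within 1.47 to 1.84, 2.43 to 2.74, 3.33 to 3.45 and 3.77 to 4.28. Over loci with 10 or more Input counts the correlation of gain and host expression was -0.002. Expression was related to the level of the loci themselves: the correlation of host level and locus level was 0.54 in Input and 0.53 in the pull-downs.

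The hosts' own exons gained less than the loci in their introns. Of 679 hosts, 672 were tested, and their median gain was -0.03. By edgeR's quasi-likelihood test 7 hosts were higher and 4 lower in LacZ, beside 6.98% and 0.43% of all genes, and by gain 18 were higher and 13 lower, beside 8.37% and 1.79%. The TEC loci themselves made up 834 of the 1153 genes called higher in LacZ and 931 of the 1383 called higher by gain. The shares called higher are therefore not those of genes other than TEC loci. With the replicate as a block the counts were 40 higher and 35 lower in LacZ, and 73 higher and 96 lower by gain. Of 1043 loci whose host was tested, 1040 had a larger gain than the host. Auts2 exons stood at 210 and 262 CPM in Input and between 240 and 306 CPM in the pull-downs, with a gain of 0.16 (adjusted p 0.625 by edgeR with Benjamini-Hochberg adjustment). Adgrb3 was the exception among the 8 leading hosts, with 54.3 and 38 CPM in Input and 68.8 to 88.7 CPM in the pull-downs, and a gain of 0.85 (adjusted p 0.0297 by the same test), below the 3.75 of its lowest locus. The correlation of host length with the gain of the host itself was 0.15 over 595 hosts.

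Within a host the estimated gains varied almost as much as the means of hosts varied. In the 87 hosts with 3 or more tested loci, which held 435 loci, the SD of gain within a host was 0.755 and the SD of the host means was 0.827. Both include the error of each gain, whose part was not tested. Among the 5 hosts with the most loci, the SD was 0.38 in Auts2, 0.37 in Adgrb3, 0.46 in Pcdh7, 0.80 in Cntnap2 and 1.18 in Dlg2. In that order, their loci had 650, 382, 247, 141 and 58 Input counts. In Auts2 the gains stayed in a narrow range along the gene. Gm43188, 44.6 kb from its start, had a pull-down level of 7.94 CPM per kb and a gain of 4.14, and Gm42993, 524 kb from the start, had 7.49 CPM per kb and a gain of 4.54. Levels were lower toward the far end, where Gm42588, 934 kb in, had 2.35 CPM per kb in the pull-downs and 0.126 in Input, with a gain of 4.15. The gains of all its loci lay between 3.35 and 4.97.

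Cntnap2, the gene of a neuronal adhesion molecule of the neurexin family, is longer, at 2245 kb, and is expressed at 1.49 CPM per kb. It held 20 loci, 15 of them tested and 8 called higher in LacZ, 8 in ODD and 7 in EVEN. Gm43872, 77 kb from its start, had a pull-down level of 2.15 CPM per kb, and Gm43883, 1728 kb from the start, had 0.114, on 1 count in Input and 5 and 10 in LacZ. The gains of the tested loci lay between 2.52 and 5.48. Dlg2, a synaptic scaffold gene of 1973 kb, held 16 loci with 20 and 38 counts before capture, 95 and 414 with LacZ probes, 121 and 379 with ODD and 130 and 254 with EVEN. In both hosts the replicate 2 pull-downs had more counts than those of replicate 1, and of the 15 tested Dlg2 loci 5 were called higher in LacZ, 5 in ODD and 0 in EVEN by edgeR. In EVEN 12 of the 15 were higher at an unadjusted p under 0.05, and 8 were called by DESeq2. With the replicate as a block edgeR called 15 in LacZ, 14 in ODD and 12 in EVEN. Over all tested same-strand loci, gain had a correlation of 0.53 with the distance from the host start and of -0.11 with the relative position in the host. The distance cannot exceed the host length. From the lowest to the highest quartile of distance, the median host length rose from 63.1 to 578 kb, so the 0.53 is not separate from host length.

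**Figure D5:**
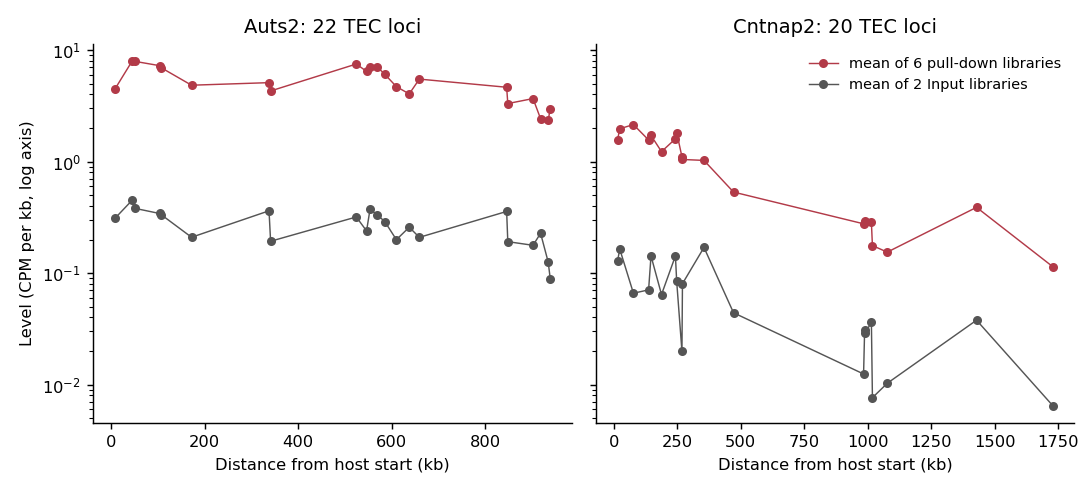
Level of each intronic TEC locus of Auts2 (22 loci) and Cntnap2 (20 loci), in CPM per kb on a log axis, against its distance from the start of the host (kb), as the mean of 6 pull-down libraries and of 2 Input libraries. In both hosts the 2 lines run apart over the whole length, and in Cntnap2 the pull-down level goes from 2.15 CPM per kb at 77 kb to 0.114 at 1728 kb.

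Among loci with 10 or more Input counts, the 5 largest increases in LacZ were all in same-strand introns. They were Gm37613 in Nav2, a neuron navigator gene, 6330415B21Rik in Ctnna2, Gm37006 in Cacnb2, a calcium channel beta subunit gene, Gm38056 in Plcl1, and 5430420F09Rik in Maml3. Gm37613 had 13 and 6 counts before capture, 189 and 210 with LacZ probes, 338 and 143 with ODD and 289 and 109 with EVEN. The pull-down and Input counts were far apart, and replicate 2 was lower than replicate 1 in ODD and EVEN. Its log2 fold change was 5.63 (SE 0.66, adjusted p 0.00443 by edgeR with Benjamini-Hochberg adjustment). The other 4 lay between 5.31 and 5.60, and their hosts spanned 348 to 1098 kb.

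The smallest values by the same choice were -1.28 for Gm43667 in an opposite-strand intron of Fxr1, -0.73 for 4933440N22Rik, -0.63 for A830073O21Rik and for Gm5112, and -0.56 for Gm10461. None of the 5 lay in a same-strand intron, and none was called by edgeR (adjusted p 0.369 to 0.688 with Benjamini-Hochberg adjustment). Gm43667 had 34 and 17 counts before capture, 2 and 7 with LacZ probes, 9 and 6 with ODD and 12 and 4 with EVEN, so that in CPM its lower Input library, at 0.828, was below the 1.01 of EVEN replicate 1.

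The 272 loci outside coding genes were of unlike kinds. 55 overlapped the body of a long noncoding gene on its strand, and 217 did not, a division chosen after seeing the data. Any overlap counted, exons included, and such loci are described below as in, of or held by that gene. Pseudogenes and small RNA genes were not searched. The 45 tested loci in noncoding genes had a median gain of 2.84, and 26 were higher in LacZ. The 138 tested loci in no such body had a median gain of 0.90, and 31 were higher in LacZ. Of the 217, 62 lay within 5 kb downstream of a coding gene of the same strand, with a median gain of 1.03.

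Mir99ahg, the host transcript of the miR-99a and let-7c cluster, held the most, with 12 loci over a span of 537 kb. They summed to 398 and 417 counts before capture, 1485 and 2079 with LacZ probes, 2116 and 1900 with ODD and 2154 and 1267 with EVEN. The pull-downs did not overlap Input, the ratio within an experiment ran from 5.61 to 11.7, and all 12 loci were called in LacZ. Gm4258 held 6 loci with ratios of 5.15 to 8.64, all called, and among them Gm37534 (chr1:137949422-137954643, plus), at 4.74 and 3.8 CPM in Input and 22.3 to 36.5 CPM in the pull-downs.

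The 3 loci of Mir9-3hg, the host of a miR-9 hairpin, had ratios of 3.29 to 4.77, and the 1 locus of Sox2ot, which runs across the Sox2 gene, had ratios of 2.16 to 3.02. In Gm37608 of Mir9-3hg the experiments differed more than in the loci above, with 12.4 and 5.31 CPM before capture, 52.7 and 28.6 with LacZ probes, 48.1 and 27.6 with ODD and 44.2 and 18.1 with EVEN. Pull-downs were higher than Input in both, and the log2 fold change in LacZ was 2.19 (SE 0.60, adjusted p 0.086 by edgeR with Benjamini-Hochberg adjustment). With the replicate as a block in edgeR it was called, with a Benjamini-Hochberg adjusted p of 0.000327, as it was by DESeq2 (0.00327) and by edgeR without the count filter (1.19e-07).

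Gm37899 had the most counts of all TEC loci. It lies on chr12:109668869-109677585, plus strand, in an imprinted cluster of noncoding RNAs, 7.15 kb from Rian and 52.2 kb from Mirg on the same strand. Its level was 10.9 and 24.1 CPM before capture, 97.2 and 154 with LacZ probes, 87.9 and 168 with ODD and 93.5 and 110 with EVEN. Replicate 2 was higher in every group, and pull-downs and Input did not overlap. The log2 fold change in LacZ was 2.85 (SE 0.48, adjusted p 0.0151 by edgeR with Benjamini-Hochberg adjustment).

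Gm44645 showed the other pattern. It lies 2351 bases from the end of Rgma, the gene of a repulsive guidance molecule, on its strand, and stood at 59 and 25 CPM before capture, 40.1 and 21.5 with LacZ probes, 40.2 and 20.4 with ODD and 41.5 and 18.1 with EVEN. The groups overlapped and the experiments differed, and the log2 fold change in LacZ was -0.45 (SE 0.59, adjusted p 0.786 by edgeR with Benjamini-Hochberg adjustment). Against the Input of its own experiment, however, every pull-down was lower, at ratios from 0.679 to 0.86. With the replicate as a block in edgeR, Gm44645 was not called in LacZ, at -0.39 with a Benjamini-Hochberg adjusted p of 0.0872. Its annotated end holds the ATTAAA shown above.

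Of the 20 loci in opposite-strand introns, 10 were tested and 5 were called in LacZ. Gm44559 and Gm44562 had the largest gains, at 5.48 and 4.87, and both lie in Ube3a, the imprinted ubiquitin ligase gene, on the strand of the antisense transcript that silences the paternal copy of Ube3a in neurons. Gm44559 had 2 and 1 counts before capture, 15 and 71 with LacZ probes, 29 and 42 with ODD and 28 and 39 with EVEN. Gm44562 had 2 and 2 before capture, 16 and 74 with LacZ probes, 32 and 34 with ODD and 21 and 22 with EVEN. Both were well above Input in every pull-down, with few Input counts to set the fold.

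More loci of that strand overlap Ube3a exons. 9330162G02Rik, which spans 30942 bases (chr7:59223847-59254788, minus), stood at 6.01 and 11.8 CPM before capture, 77.3 and 125 with LacZ probes, 71.8 and 130 with ODD and 67.7 and 78.1 with EVEN. Pull-downs and Input did not overlap, and its log2 fold change in LacZ was 3.51 (SE 0.46, adjusted p 0.00652 by edgeR with Benjamini-Hochberg adjustment). Gm44560 had a log2 fold change of 4.47 (SE 0.64) in LacZ. These 4 loci lie 18.8 to 53.1 kb past the annotated end of Snhg14, the long noncoding gene of the same strand. The body of Snhg14 was overlapped by 2 further TEC loci, both called in LacZ, with ratios of 8.44 to 20.4. The exons of Ube3a had a gain of -0.02.

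Other opposite-strand loci with many counts lay in other genes. Gm43668 (chr3:34070659-34076000, plus), shortly past the end of Fxr1 on the same strand, stood at 9.76 and 11.2 CPM in Input and 18.7 to 28.9 CPM in the pull-downs. Whether its reads continue from Fxr1 was not tested. Its log2 fold change with LacZ probes was 1.33 (SE 0.25, adjusted p 0.022 by edgeR with Benjamini-Hochberg adjustment). 5730507A11Rik, in Nr6a1, had 4 and 10 counts before capture, 31 and 50 with LacZ probes, 58 and 29 with ODD and 67 and 21 with EVEN, a log2 fold change of 3.67 (SE 0.71). Gm36401 in Lcorl and 4930466K18Rik in Mcm9 overlapped between Input and pull-downs, at 0.26 (SE 0.40) and -0.07 (SE 0.47).

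In the exon-overlap class the strand of the host divided the loci. The 49 on the host's strand had a median gain of 1.88 in the 42 tested, and the 106 on the opposite strand had 0.49 in the 69 tested. Gm49759, on the strand of Pkm, the pyruvate kinase gene, stood at 22.5 and 27.3 CPM in Input and 38.3 to 47 CPM in the pull-downs, without overlap, with a log2 fold change in LacZ of 0.78 (SE 0.19, adjusted p 0.0627 by edgeR with Benjamini-Hochberg adjustment). With the replicate as a block in edgeR its Benjamini-Hochberg adjusted p was 0.00694, and by DESeq2 it was 0.0196, so its call depended on the test. Gm9954, opposite Nwd2, and Gm49338, opposite the beta-secretase gene Bace1, had -0.50 (SE 0.63) and 0.08 (SE 0.18). With the replicate as a block Gm9954 was called lower than Input by edgeR, at -0.51 with a Benjamini-Hochberg adjusted p of 0.0237.

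Host genes were also looked up by function, in lists chosen with earlier results of these data known. Of 37 axon guidance and adhesion genes, 13 were hosts, with 60 loci, and 45 of the 55 tested were higher in LacZ, with a median gain of 4.17. Of 22 synapse and scaffold genes, 12 were hosts, with 75 loci, and 56 of 70 tested were higher, with a median of 4.15. Of 28 ion channel and receptor genes, 7 were hosts, with 12 of 13 tested loci higher and a median of 4.17, and of 14 RNA-binding protein genes, 4 were hosts, with 8 of 8 higher and a median of 3.36. Beside these, 741 of the 1051 tested same-strand loci were higher in LacZ, with a median gain of 2.94, and 6.98% of all genes were. Among tested loci in hosts of 222 to 450 kb and 450 to 4435 kb, 81.85% and 81.57% were higher in LacZ. The lists were not compared with other hosts of like length. The median host length of the lists, weighted by loci, was 573, 783, 514 and 141 kb. None of the 15 motor neuron identity genes, such as the LIM homeobox factors, was a host. The exons of the listed genes had median log2 fold changes between -0.06 and 0.32 in LacZ for the 4 lists with hosts, and 1, 0, 3 and 0 genes were called higher.

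The annotated end of a locus and its gain were compared last. In same-strand introns the 137 tested loci with AATAAA in the last 50 bases had a median gain of 2.61, and the 914 without it had 2.97. The former lay in shorter hosts, with medians of 158 and 228 kb. Within quartiles of GC content the correlation of gain with host length was between 0.68 and 0.78. The smallest gain of a same-strand locus was -0.94, for Gm47813 in Net1, a gene of 36.2 kb, and it was the only one of 1051 below 0.

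The threshold of 20 counts fell among loci alike in their counts. The 18 loci with exactly 20 counts had 47 Input and 313 pull-down counts in all, and the 12 with 19 had 38 and 190.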

How the data were processed

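The authors deposited whole-number read counts per Ensembl gene for 8 libraries of total RNA made with a stranded kit that depletes ribosomal RNA, per the labels' protocols. The submitters' processing notes name cutadapt 3.2, Bowtie2 2.4.2, Picard, HTSeq 0.13.5 and GRCm38. The sources used here give neither the role of each nor the annotation and strand setting. A deposited table of FPKM, normalised by the authors to length and depth, and the deposited gene lengths were used only to match the annotation: of 55471 identifiers, 55230 were in GENCODE M21 and 99.1% of those had its length.

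Counts were tested with edgeR 4.0.16 (R 4.3.3): quasi-likelihood, TMM, default filter, group as the only term, all 8 libraries, 16524 genes, two-sided p with Benjamini-Hochberg adjustment, threshold 0.05. CPM uses TMM-scaled library sizes. On simulated counts, for LacZ against Input over 16524 genes, 0%, 72% and 91.5% of 200 genes changed by a log2 of 1, 2 and 3 were recovered, with 0 of 0, 10 of 154 and 11 of 194 calls false. Replicate numbers are labelled as batches, and deviations of same-numbered libraries correlated at 0.517 to 0.719 over 6 pairs of groups, so the numbers pair the libraries. Alternatives were the replicate block, DESeq2 1.42.0, RLE, no filter, other count minimums, exons of protein-coding transcripts only and leaving out each library, which assumes that a lone library varies like the other groups.

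The loci, lists and tests were chosen with earlier results of these data known. Named were the 6 loci with the most counts in same-strand introns and the 4 in each other class, the 5 highest and 5 lowest in LacZ with 10 or more Input counts, the 3 higher and 3 lower of smallest p against LacZ, the 8 hosts with the most pull-down counts and the 5 with the most loci. Others were named after their values were seen, including the loci of Ube3a, Map1b and Fgfr2 and those of noncoding genes. Sequences come from GENCODE M21 transcripts, low-complexity tracts from dustmasker 2.17.0.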

Additional observations from a re-analysis of the deposited data

How the results depend on the processing

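No median gain or correlation reported changed sign under the alternatives run. With the replicate block, 1017 loci were higher in EVEN and 2 lower, 1 was lower in LacZ and 5 were lower by the mean of the pull-downs, and without the count filter 994 were higher in EVEN. All loci called higher in ODD, EVEN and LacZ without the block were also called with it. Leaving out 1 library at a time, loci higher numbered 183 to 748 for LacZ, 117 to 684 for ODD, 0 to 563 for EVEN and 228 to 850 by the mean, and median gains were 2.60 to 3.42 in same-strand introns, 1.11 to 2.62 in opposite-strand introns, 1.00 to 1.48 outside coding genes and 1.08 to 1.5 with exon overlap. The correlation of gain with host length was 0.65 to 0.74 and with host expression -0.21 to -0.17. With loci of 10 or more Input counts, the median was 0.49 in opposite-strand introns and 0.92 outside coding genes, and the correlation with expression was -0.0020. Of the 8 leading hosts, 1 led per kilobase. The cause of these shifts was not tested. Changes of sign touched loci that were not called without the block; with it, Gm9954 was called lower in LacZ. Leaving out 1 library at a time, their log2 fold changes in LacZ ran from -0.42 to 0.24 for 4930466K18Rik, -0.98 to 0.29 for Gm44645, -1.23 to 0.20 for Gm9954, -0.079 to 0.24 for Gm49338 and -1.22 to 0.29 for A830073O21Rik. With 2 libraries a group and few Input counts in the longest hosts, folds of single loci are imprecise.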
